A study of Oncorhynchus mykiss with 14 samples.

Results

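The gene gata2 (Ensembl gene ENSOMYG00000041565, annotated as GATA binding protein 2a) is 1 of the 64494 genes counted in eggs of rainbow trout (Oncorhynchus mykiss, Rutki strain), and it was followed through all 14 libraries of the series. It was chosen because its counts in the gynogenetic eggs had been found to follow the survival of gynogenotes, so its levels beside that survival are given as a description and were not tested. Each of 7 females, all 5 years old, gave a clutch from which 2 pools of eggs were sequenced. The gynogenetic pool (n = 7) was activated with grayling sperm irradiated with UV, and the control pool (n = 7) was fertilized with untreated rainbow trout sperm. Embryos of the gynogenetic groups were later exposed to hydrostatic pressure to double the maternal chromosomes, and control groups were not. Eggs were preserved immediately after treatment, and the sources used here do not say if pressure had been applied by then. The labels give XX, Doubled Haploids as the genotype of both groups. A pool held 2 to 3 eggs, so each clutch is represented by few eggs per treatment. The females are called F1, F2, F3, F4, F6, F7 and F8, and the library of each was taken from the library numbers of the study. The survival table of the study places F1, F4, F7 and F8 among clutches with increased competence for gynogenesis, and F2, F3 and F6 among those with decreased competence. The study's clustering by the genes most correlated with survival instead put the gynogenetic pool of F1 with those of F2, F3 and F6. The grouping of the survival table is used here.

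GATA factors are zinc finger proteins that bind the DNA motif for which they are named and switch genes on or off. In zebrafish and Xenopus embryos, gata2 acts in ventral and non-neural ectoderm downstream of BMP signals, and later in blood stem cells and endothelium. A ripe trout egg does not transcribe its own genome, and its messenger RNA was laid down by the mother during oogenesis, when the transcripts of maternal genes are stored for the first cell cycles.

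The assigned counts ranged from 45860801 to 67557305 in the gynogenetic and from 34535902 to 57014149 in the control libraries. Levels are counts divided by DESeq2 size factors over the 14 libraries, called normalized counts, and a gene was detected when their mean was above 1. The transcript was detected, with a mean of 538 normalized counts, and 68.9% of the 30919 detected genes had a lower mean. Of the egg markers, cyclin B1 (ccnb1), which drives entry into M phase, could be matched to the files, and its level was 122300 ± 23040 normalized counts in the gynogenetic pools and 109800 ± 20860 in the control pools (SD, n = 7 each). Symbols were at hand for few Ensembl genes, all from the study's lists of genes correlated with survival, ccnb1 included. The other GATA factors, the partners of gata2 and the markers of follicle, blood and endothelial cells were therefore not analysed here. Nearly all deposited counts were even, so a read pair seems to have added 2 to a gene. The deposited counts of gata2 were therefore divided by 2 for its exact Poisson 95% intervals, which cover counting error only. In the annotation of OmykA_1.1, the gene lies on chromosome 17 at 56.78 Mb. Reads of a duplicated copy or of a gene on the opposite strand could be counted in part with it. The study prepared its libraries with a stranded kit, but no source used here states how the counting treated strand.

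In the gynogenetic eggs, gata2 ranged over 34.5-fold between clutches. The gynogenetic pool of F8 had 1712 normalized counts (95% interval 1604 to 1825) and that of F7 had 1306 (1219 to 1398). F4 followed with 904 (823 to 991) and F1 with 399.7 (345 to 460.0). The clutches with decreased competence were lower, with 210.4 (178 to 247) in F6, 114 (84.3 to 151) in F2 and 49.7 (32.7 to 72.3) in F3. The order from the lowest to the highest was thus F3, F2, F6, F1, F4, F7 and F8, and no interval overlapped that of its neighbour.

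The control eggs of the same females were in a different order. The control pool of F6 had the highest level, 823 normalized counts (742 to 911), followed by F2 with 505 (445 to 571). F7 had 453 (383 to 532), F4 had 426 (374 to 484) and F3 had 364 (317 to 415). F1 had 173 (139 to 213), and F8 was the lowest with 93.1 (67.4 to 125). The range was 8.84-fold. The intervals of F3, F4, F7 and F2 overlapped from one to the next in this order, so these neighbours did not differ beyond counting error. The clutch with the highest level among the gynogenetic pools, F8, had the lowest level among the control pools.

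**Figure D1:**
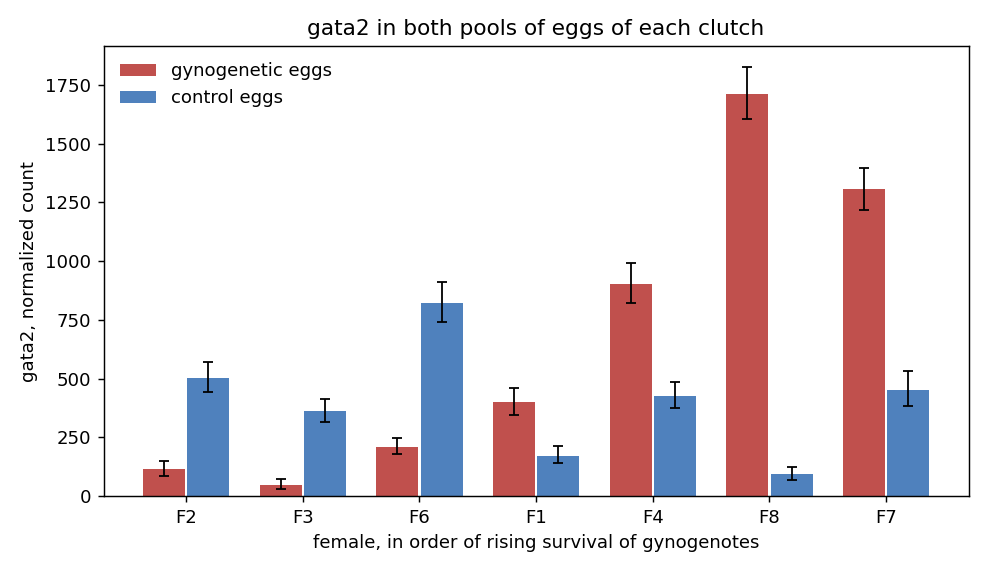
Normalized counts of gata2 (y axis) in the gynogenetic (red) and control (blue) pool of each of 7 females (x axis, in order of rising survival of gynogenotes). Bars are single libraries and error bars are Poisson 95% intervals of counting. The gynogenetic pools of F1, F4, F8 and F7 lie above their control pools, with 399.7 to 1712 against 93.1 to 453, and those of F2, F3 and F6 lie below, with 49.7 to 210.4 against 364 to 823.

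Within every clutch the pools differed, and the direction was not the same in all females. The level in the gynogenetic pool was 18.4-fold higher than in the control pool in F8, 2.88-fold higher in F7, 2.31-fold higher in F1 and 2.12-fold higher in F4. It was 7.32-fold lower in F3, 4.43-fold lower in F2 and 3.91-fold lower in F6. The counting intervals of the pools overlapped in 0 of the 7 clutches. The 4 clutches in which gata2 was higher in gynogenetic eggs were those with increased competence, and the 3 clutches in which it was lower were those with decreased competence. This split follows in part from the choice of the gene by its gynogenetic libraries, and it was not tested. Of the 30919 detected genes, 0.401% (124 genes) were likewise higher in gynogenetic eggs of these 4 clutches and lower in those of the other 3. With 1 pool per treatment and clutch, the treatment cannot be told apart from variation between pools of eggs of the same female.

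The same differences were set against those of 5075 genes of similar abundance, whose mean was between 0.5 and 2 times that of gata2. On the scale of log2(normalized count + 1), the difference of gynogenetic minus control was 4.19 in F8, and 3 of the 5075 genes had a larger absolute difference in that clutch. It was -2.85 in F3, where 5 genes had a larger one, -2.14 in F2 (46 genes) and -1.96 in F6 (49 genes). It was 1.53 in F7 (191 genes), 1.20 in F1 (150 genes) and 1.08 in F4 (589 genes). In 6 of the 7 clutches gata2 thus lay outside the range that held the middle 90% of these genes, with F4 as the exception.

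**Figure D2:**
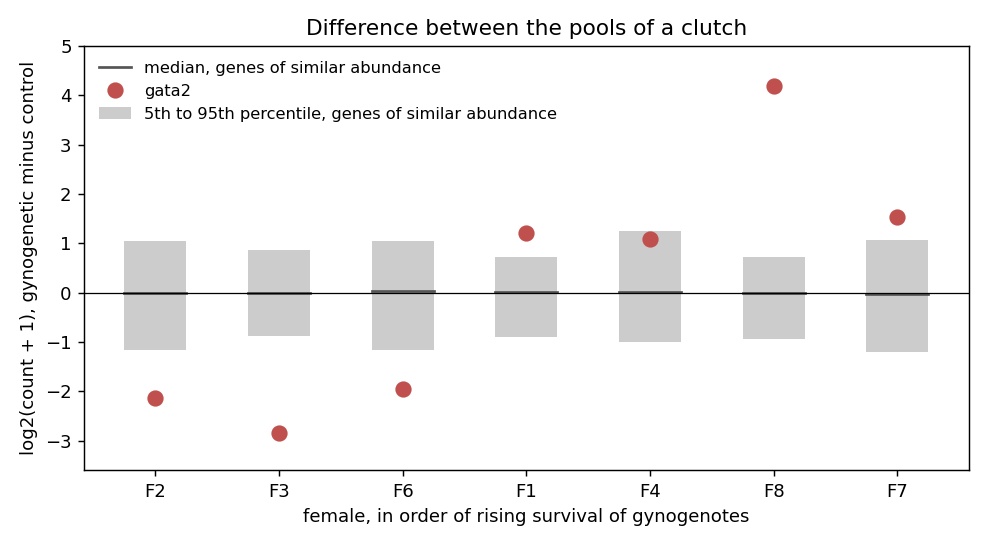
Difference of log2(normalized count + 1), gynogenetic minus control pool (y axis), in each of 7 females (x axis, in order of rising survival of gynogenotes). Red points are gata2, grey bars the 5th to 95th percentile and dark lines the median of the 5075 genes of similar abundance. The points lie at -2.85 to -1.96 in F2, F3 and F6 and at 1.08 to 4.19 in F1, F4, F7 and F8, and the point of F4 is the one inside its grey bar.

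Over the 7 clutches, the root mean square of these differences was 2.36 log2 units for gata2 and 0.523 for the median gene of similar abundance, and 6 of the 5075 genes exceeded it. Those 6 genes kept the order of the clutches in part, with an r between the pools of 0.417 to 0.895. For gata2 the r between gynogenetic and control pools was -0.44 on the log2 scale over the 7 clutches, where the median gene of similar abundance had 0.742 and 38 genes (0.749%) had a lower value. Over all detected genes with an r, the median was 0.572 and 2.66% had a lower value. The levels of gata2 therefore did not agree within a clutch. By the correlation of log2 levels over all detected genes, the nearest library to each of the 14 was nevertheless that of the same female. F8 weighed on both values. Without it the root mean square was 1.89, exceeded by 14 of the 5075 genes, and r between the pools was -0.09, with 4.83% of these genes lower. Without any other single female, r was -0.58 to -0.39. The mean of both pools varied less unusually. Its SD over clutches was 0.856 log2 units for gata2, and 18.7% of the genes of similar abundance had a larger one.

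**Figure D3:**
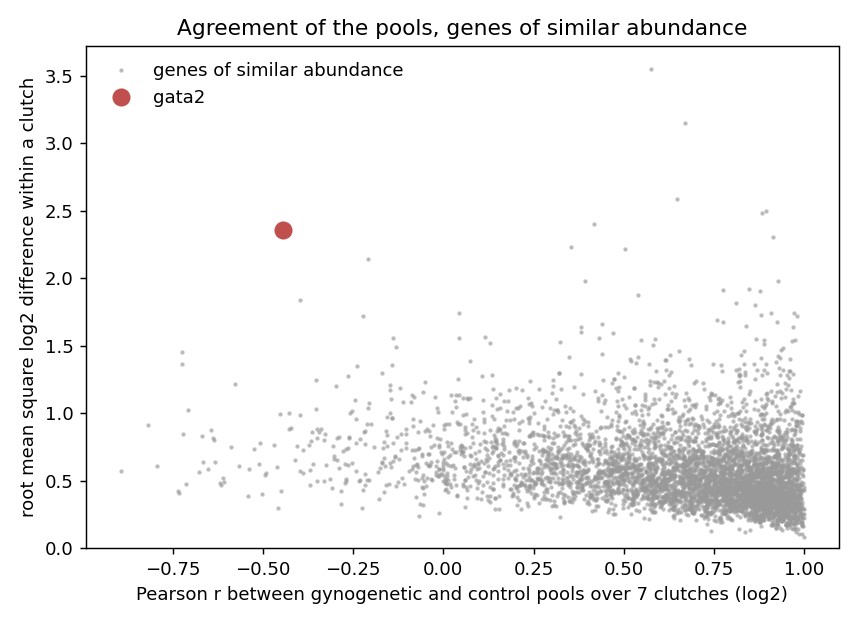
Root mean square of the within-clutch log2 differences (y axis) against Pearson's r between gynogenetic and control pools over 7 clutches (x axis, log2 scale) for the 5075 genes of similar abundance (grey points). The red point, gata2, lies at an r of -0.44 and a difference of 2.36, apart from the mass of genes around the medians of 0.742 and 0.523.

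Changes of this size in every clutch were also counted. Of 15947 genes with a mean of at least 100 normalized counts, 23 differed by more than 1 log2 unit between the pools in all 7 clutches. In 22 of these the direction was the same in every clutch, and gata2 was the 1 gene with both directions. This rests on the floor of 100 and on a cut just under the smallest difference of gata2, 1.08. With no such floor, 200 of the 30919 detected genes differed by more than 1 log2 unit in all 7 clutches. Of these, ENSOMYG00000002505 (mean 17.8) was lower in gynogenetic eggs of the 4 clutches with increased competence and higher in those of the other 3. Among all detected genes, 14 genes changed by more than 0.5 log2 units in opposite directions in the groups of 4 and 3 clutches, 7 with the signs of gata2 and 7 with the opposite ones. The other 13 had means of 4.75 to 29.1 normalized counts, where few reads decide a difference. These counts use the gynogenetic libraries by which the gene was chosen, and they describe these libraries.

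Next, gata2 was compared between gynogenetic and control eggs over all females. This contrast was not used to choose the gene, but it includes the gynogenetic libraries that were. The gynogenetic pools had 670.8 ± 648.5 normalized counts and the control pools 405 ± 238 (SD, n = 7 each), with a wide overlap. In edgeR's quasi-likelihood test over the 30919 detected genes, the log2 fold change was 0.72 ± 0.63 (SE), with an adjusted p of 1 (unadjusted p = 0.265), and gata2 did not pass. The test called 0.184% of the genes. Without F8, the log2 fold change in this test was 0.12 ± 0.61 (SE). With all 7 females and the female as a block it was 0.12 ± 0.38 (SE, adjusted p = 0.953), and 5.04% of the genes were called. The mean of the 7 within-clutch differences was 0.15 ± 0.96 (SE, n = 7), higher in 4 and lower in 3 clutches, with a two-sided exact sign-flip permutation p of 0.891, where the smallest possible is 0.0156.

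The levels beside the survival of gynogenotes at the eyed stage are a description, since that relation chose the gene. In the gynogenetic eggs, Pearson's r was 0.941 and Spearman's rho 0.929 over 7 clutches, and r was 0.969 without F7 and F8. The clutches with increased competence had 1080 ± 561 normalized counts (SD, n = 4) and those with decreased competence 125 ± 80.9 (SD, n = 3), an 8.67-fold difference, and the lowest pool of the increased clutches, F1, was above the highest of the decreased ones, F6. Of all detected genes, 1.47% parted these 4 clutches above the 3 others in gynogenetic eggs. In the control eggs, which were not used for the choice but come from the same females, r was -0.36 and rho -0.36, and r was -0.20 without F7 and F8. There the clutches with increased competence had 286 ± 180 (SD, n = 4) and those with decreased competence 564 ± 235 (SD, n = 3), and both ranges overlapped, from 93.1 to 453 and from 364 to 823. For the mean of both pools, which includes the libraries of the choice, r was 0.918 and rho 0.786, and r was 0.758 without F7 and F8.

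Of the 53 genes that had been chosen in the gynogenetic libraries in the same way, gata2 had the lowest r between the pools of a clutch. Their median was 0.626, and 5 others were below 0. These were aldh1a1, rem2, scmh1, chchd1 and nsmfa, named here after their values were seen, with r of -0.32 to -0.06. The 5th percentile of this r was -0.324 over all detected genes and 0.00888 over genes of similar abundance to gata2. The share of all genes below 0 was not counted, so values below 0 are not particular to this list. With a mean of at least 100 normalized counts, 29 of the 53 genes remained, and gata2 and chchd1 were the ones below 0. The sign of r with survival differed between gynogenetic and control eggs in 7 of the 53 genes, gata2 included. The share of all detected genes that change sign was not counted. The 53 genes were chosen by their r in gynogenetic eggs, and those in control eggs had no part in the choice. As gata2 had the lowest r between pools of the list, every other gene had a higher one. Values of some developmental transcription factors of the list are given as a description. They were picked by hand and not by a rule, and they do not stand for all regulators of the list. The r between pools was 0.576 for hesx1, a homeobox repressor of the anterior brain, and 0.649 for alx1, a homeobox factor of the face. It was 0.752 for hoxb7a and 0.429 for hoxd10a, patterning factors of the Hox clusters, and 0.652 for sox8a, a factor of neural crest and gonad. Their within-clutch differences were not all smaller, and the root mean square was 2.40 log2 units for hoxd10a. Like alx1 and hoxb7a, hoxd10a had 0 counts in at least 1 library.

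**Figure D4:**
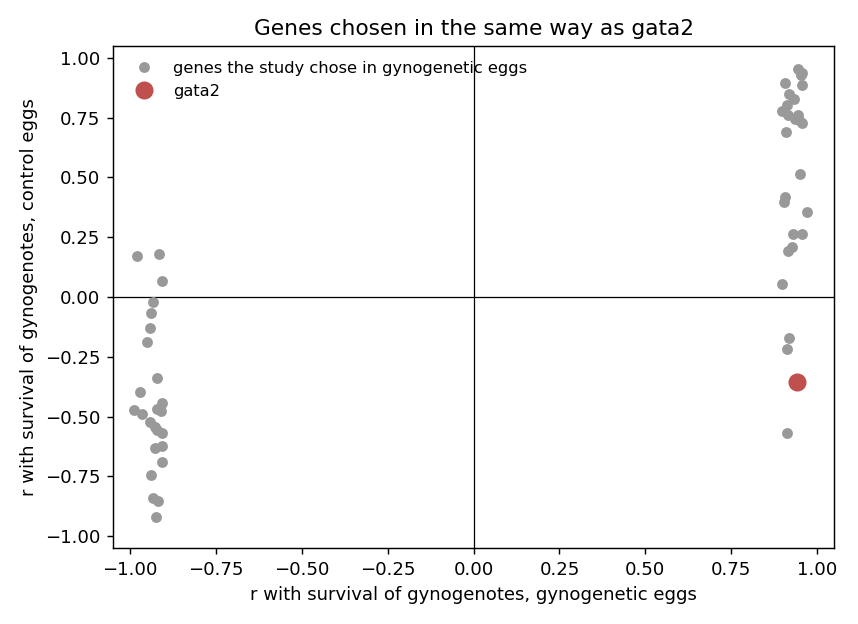
Pearson's r with the survival of gynogenotes at the eyed stage in control eggs (y axis) against that in gynogenetic eggs (x axis), over 7 clutches, for the 53 genes chosen by their value in gynogenetic eggs. Points in the upper right and lower left keep their sign. The red point, gata2, lies in the lower right with 0.941 in gynogenetic and -0.36 in control eggs, among the 7 genes that change sign.

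Other properties of the clutch were related to gata2 in the control eggs, in a family of 3 relations. The study reported the survival of control offspring as comparable between its females, without substantial differences, so this property varied little between clutches. With the survival of control embryos at the eyed stage, r was 0.644 (two-sided exact permutation p = 0.127, adjusted p = 0.364) and rho 0.679 (exact permutation p = 0.11, adjusted p = 0.25) over the 7 clutches. Without F6 and F4, r was 0.396. With the weight of the female, r was 0.513 (exact permutation p = 0.243, adjusted p = 0.364) and rho 0.607 (exact permutation p = 0.167, adjusted p = 0.25), and r was 0.513 without F4 and F1. Leaving out 1 female gave an r with weight of 0.364 to 0.801, the highest without F6. With her length, r was 0.173 (exact permutation p = 0.718, adjusted p = 0.718) and rho 0.25 (exact permutation p = 0.595, adjusted p = 0.595), and r was 0.183 without F4 and F7. Leaving out 1 female gave an r with length of -0.0372 without F1 to 0.784 without F6. None of the 3 passed, and 7 clutches leave room for strong relations to be missed. In edgeR's trend test over all genes, the log2 slope of gata2 per SD of control survival was 0.59 ± 0.30 (SE, adjusted p = 0.71, unadjusted p = 0.0771). The slope was 0.37 without F8, 0.38 without F6 and 0.95 without F2, and it did not pass after adjustment in any of these fits. The unadjusted p of this trend test was 0.209 without F8, 0.299 without F6 and 0.00969 without F2 (adjusted p = 0.81). The test on all 7 clutches called 0% of the 30919 genes, with 2246 at an unadjusted p below 0.05 and 62 called by DESeq2.

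The size of the libraries and their share of assigned counts were set beside gata2, and other properties of the libraries were not examined here. Over the 14 libraries, which come in pairs from 7 clutches, r of gata2 was 0.241 with the assigned counts and -0.14 with the share of mapped counts assigned to genes, given as a description.

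Finally, genes with a pattern like that of gata2 were sought among the 24041 other genes with a mean of at least 10 normalized counts. The likeness was Pearson's r of log2(normalized count + 1) over the 14 libraries. No gene reached 0.8, and 10 were above 0.7. The highest was ENSOMYG00000003057 with 0.780, whose levels spanned 1.95-fold over the 14 libraries, against 34.5-fold for gata2 in gynogenetic and 8.84-fold in control eggs. Of the genes with a symbol, the nearest was smurf2, a ubiquitin ligase of TGF-beta and BMP signalling, with 0.674 and a span of 2.71-fold. An interferon regulatory factor (ENSOMYG00000012474) followed with 0.619, fbxw11a, a subunit of a ubiquitin ligase, with 0.592, the osmotic stress kinase oxsr1a with 0.563 and the small GTPase rasl11b with 0.481. These 5 genes are on the list of genes chosen by the survival of gynogenotes, as is gata2, and symbols were at hand for 205 of the genes compared, all from gene lists of the study. Of the pathway lists, 2 other genes could be matched, both through gene lists of the study. The BMP ligand bmp7a is itself among the genes chosen by the survival of gynogenotes, with an r of -0.911 in gynogenetic eggs. It had 10.6 ± 8.36 normalized counts in the gynogenetic pools and 14.8 ± 8.91 in the control pools (SD, n = 7 each). For nfyba, a subunit of the CCAAT-binding factor, these were 2097 ± 476 in the gynogenetic pools and 1935 ± 359 in the control pools (SD, n = 7 each). The r between the pools of a clutch was 0.478 for bmp7a and 0.867 for nfyba.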

How the data were processed

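PolyA RNA of 14 pools of eggs was sequenced as paired reads. Per the methods and labels, the authors checked reads with FastQC 0.11.9, trimmed them with Flexbar, mapped them to OmykA_1.1 with STAR 2.7.5c and counted them with HTSeq (1.99.2 in the submitters' notes) on Ensembl annotation 108. The deposited values are unnormalized counts of 64494 genes, and 5 summary lines per library were left out. Between 99.66% and 99.77% of the values above 0 were even. The labels give treatment and replicate number. The female came from the library number in the study's library list. The deposited counts divided by the study's printed normalized counts had a coefficient of variation over genes of at most 1.9e-06 for the assigned library and of at least 0.175 for any other.

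Normalized counts used DESeq2 1.42.0 size factors. Comparisons over the 30919 detected genes were fitted in R 4.3.3 by the quasi-likelihood test of edgeR 4.0.16, scaled by TMM, with Benjamini-Hochberg adjustment. SE is the log2 fold change divided by the square root of F. The fits were tested on simulated data. These held no differences between females, so they cannot show how the fits without the block perform on these clutches. Replicate numbers pair libraries of a female: deviations from group means correlated with 0.373 to 0.529 within females. Between a gynogenetic and a control library of different females the correlation was at most 0.0548. P-values of the fits without the block and of the relations measure the spread between clutches, each seen through 1 pool of 2 to 3 eggs. The main treatment fit took the 14 libraries as independent, although they come in pairs. The p-value of the sign-flip test measures the spread of the differences of gata2 between the 2 pools of a clutch. Those with the block rest on a spread of these differences that edgeR moderates over genes. For gata2 the SE was 0.38 with the block and 0.96 from its own differences, so the block understates its spread. Correlations and figures used Python 3.11.15. The gene and the lists were chosen with earlier results of these data known. Genes to be named by rule were gata2, the genes most like it, those neighbouring it and members of the lists, as far as symbols matched. Neighbours were not analysed here. Outside this rule, hesx1, alx1, hoxb7a, hoxd10a and sox8a were picked by hand from the study's list. The genes of that list with an r between pools below 0 and ENSOMYG00000002505 were named for their values. Alternatives were other scalings, filters, tools, survival stages, the block and leaving out females, and counts divided by 2, the sign-flip test and the within-clutch differences without each female were added after the data were seen.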

Additional observations from a re-analysis of the deposited data

Results flagged for a closer look

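The difference of gata2 between gynogenetic and control pools went one way in the clutches with increased competence and the other way in those with decreased competence. The smallest of the positive differences was 1.08 log2 units, in F4, and the negative one nearest to 0 was -1.96 log2 units, in F6. Every clutch of a group moved in the same direction, but the difference between the groups was not tested, since the gynogenetic libraries had been used to choose the gene.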

How the results depend on the processing

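The log2 fold change of gata2 between gynogenetic and control eggs was positive and did not pass under any alternative run, with 0.12 with the female as a replicate block and 0.12 to 1.12 when 1 female was left out. The slope on control survival stayed positive and did not pass, with 0.37 to 0.95 when 1 female was left out. The number of genes called between treatments was 57, against 1557 with the block, 1820 with the block on counts divided by 2, 199 in DESeq2 and 4 to 51 without 1 female (4 without F2, 51 without F8). For control survival it was 0, against 62 in DESeq2 and 0 to 1 without 1 female (1 without F8). The r of gata2 with control survival was 0.644 in control eggs and -0.31 in gynogenetic eggs of the same females. That with length was -0.0372 to 0.784 without 1 female, and negative without F1. The r with survival of gynogenotes was 0.941, 0.929 to 0.988 without 1 female, 0.789 with survival at the swim-up stage and -0.36 in control eggs. The share of genes with larger within-clutch differences than gata2 was 0.118%, 0% in a narrower window around its mean, 0.0591% to 0.276% without 1 female (the highest without F8) and 5.56% over all detected genes. The cause of these changes was not tested. Counting error limits the lowest libraries most, with 27 read pairs for gata2 in the gynogenetic pool of F3 and 43 in the control pool of F8.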
